A study of Homo sapiens with 2 samples.

Results

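The Mediator complex was examined in a pooled CRISPR knockout screen, as the guides whose target was 1 of 33 genes listed by symbol: the MED subunits, the kinases CDK8 and CDK19, and cyclin C (CCNC). The rule uses gene symbols and no read count, but the complex was chosen with earlier results of these data known. All 33 genes were found, each with 6 guides, which gave 198 guides out of 114123 guides against 19051 protein-coding targets.

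The screen was run in SK-OV-3, an established human ovarian cancer cell line, here stably carrying a reporter of transcriptional readthrough (TRT) in which mCherry stands in for COMMD3 and EGFP for its downstream neighbour BMI1. EGFP is made in this reporter when transcription continues past the end of the upstream gene. Cells carrying the GeCKO v2.0 knockout pool were either left unsorted or sorted as TRT-negative, that is positive for mCherry and negative for EGFP, and the comparison between these populations asks which knockouts accompany loss of readthrough. Each population gave 1 library of genomic DNA, with 12882989 unsorted and 12444427 TRT-negative reads over 123411 guide rows. Both populations descend from the same reporter cells, the same library infection at a multiplicity of about 0.3 and the same puromycin selection at 2 µg/mL. The control sample carries a title with both fluorescent proteins in it, which leaves a sort for double-positive cells possible. The description of the design speaks of unsorted cells, and on that basis it is treated as unsorted in every ratio.

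Because neither population had a replicate, no difference between them was tested and no p-value is given. Shares carry exact Clopper-Pearson 95% intervals, which cover only the counting error of a number of guides taken as independent draws. They cover neither the sampling of reads nor variation between sorts. Amplified reads are also not independent molecules. A guide measures the DNA of cells that carry it, not how well it cut its target, and protein levels of Mediator subunits were not measured.

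Mediator is a large assembly that carries signals from DNA-bound activators to RNA polymerase II at promoters. Its head and middle modules contact the polymerase, MED14 runs through the complex as a scaffold, the tail receives many of the activators, and a separable kinase module built on CDK8 or CDK19 controls whether the core can engage the polymerase. Several subunits of the head and middle are required for growth in most human cell lines.

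Most Mediator guides were seen in neither population. Of the 198 guides, 158 had no read in either library, which was 79.8% against 76.9% of all protein-coding guides. The unsorted library held reads for 13 Mediator guides (6.57%, interval 3.54% to 11.0%), where 10.5% of all protein-coding guides were read. The TRT-negative library held reads for 40 (20.2%, interval 14.8% to 26.5%), where the share over all protein-coding guides was 22.6%. Both shares over all guides lay inside the Mediator intervals, so these intervals did not set Mediator guides apart from the pool in how many were detected. Every one of the 13 guides read before sorting was read again afterwards, as were 95.1% of such guides across the protein-coding pool. The remaining 27 Mediator guides (13.6%, interval 9.18% to 19.2%) were read only after sorting, beside 12.6% of all protein-coding guides.

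**Figure D1:**
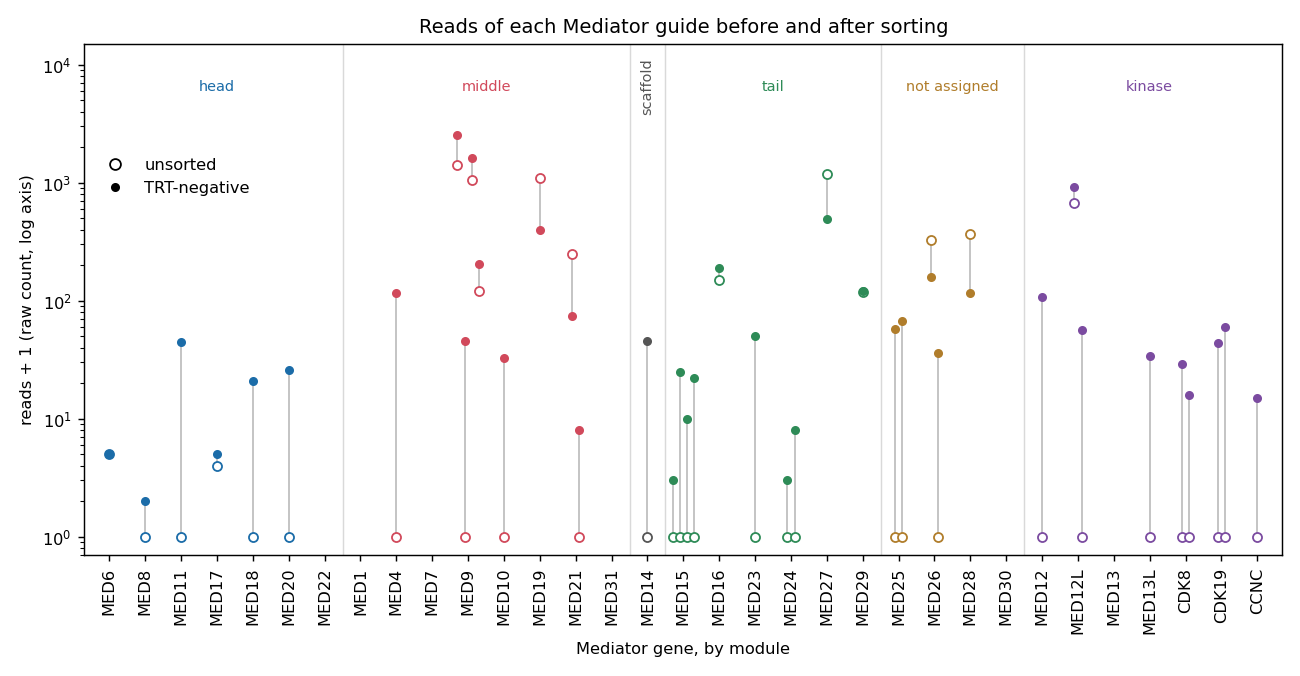
Raw reads plus 1, on a log axis, of each Mediator guide read in either library, open where unsorted and filled where TRT-negative, joined by a line for each guide, with genes grouped by module along the horizontal axis. MED9 has 4 guides with reads, 3 of them read in both libraries, while 16 genes have reads only after sorting and 6 have none. Of all protein-coding targets, 46.9% have an unsorted read and 22.1% have no read in either library.

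By gene, 6 of the 33 had no read on any guide: MED1, MED7 and MED31 of the middle, MED22 of the head, MED13 of the kinase module, and MED30. Such genes made up 22.1% of all protein-coding targets. MED1 binds nuclear receptors, and MED13 joins the kinase module to the core. Nothing can be said of their knockouts from these libraries, since with 0 reads an abundance of up to 3 reads per library is allowed. Another 16 genes had reads only in the TRT-negative library, and 11 had a read in the unsorted library. The share of protein-coding targets with at least 1 unsorted read was 46.9%. Targets outside that 46.9% and the 22.1% without a read were those read only after sorting. Of the Mediator genes with reads, 18 rested on 1 guide and 7 on a pair of guides. The matching counts over all targets were not taken, so these describe Mediator only. Only MED9 and MED15 had 4 guides read in either library, a number reached or passed by 3.78% of protein-coding targets.

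The clearest series of values within the complex belonged to MED9, a small subunit of the middle module encoded on chromosome 17 (17476994 to 17493221, plus strand, hg38). Its first guide went from 1403 unsorted to 2532 TRT-negative reads, its second from 1059 to 1607, and a further guide from 120 to 202. On the log2 scale of normalized counts these were ratios of 0.91, 0.66 and 0.80, or 1.87-fold, 1.57-fold and 1.74-fold higher after sorting. All were higher, and all fell short of 2-fold. Another MED9 guide had no unsorted read and 45 TRT-negative reads, and the remaining guides of the gene were not read. GeCKO is supplied as sub-pools A and B with different guides, and the ratios of 0.91 and 0.66 came from sub-pool A and that of 0.80 from sub-pool B.

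MED9 was the only Mediator gene with at least 3 guides that had 30 or more unsorted reads, a depth called well-read here and reached on 3 guides by 1.87% of protein-coding targets. Singly, 34.2% of well-read protein-coding guides were higher after sorting. Among the 356 targets with at least 3 well-read guides, 8 (2.25%) had every such guide higher, and MED9 was 1 of these 8. That count depends on where the zero of the ratio lies: it was 25 (7.02%) when the libraries were scaled by the median ratio of guides read in both, and 12 (3.37%) when they were scaled on non-targeting guides. MED9 was among them under each scaling, with ratios of 1.21 to 1.46 and of 0.95 to 1.20. Taken singly, its guides were not extreme, since 13.4%, 15.4% and 18.9% of well-read protein-coding guides had a ratio at least as high as 0.91, 0.80 and 0.66. Guides of 1 gene share a target and are not replicates of the sort.

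The weight of MED9 in the summed reads of the complex was large. It held 38.3% of Mediator reads in the unsorted library and 56.4% in the TRT-negative library. All Mediator guides together went from 6734 to 7779 reads, a log2 ratio of 0.26 on the normalized scale, and MED9 alone went from 2582 to 4386, a log2 ratio of 0.82. The sum over the complex thus leaned on 1 gene, and no other Mediator gene held more than 17.6% of the reads in either library.

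MED19 and MED21, which belong to the same middle module, had lower counts after sorting on their well-read guides. MED19, on chromosome 11, is a subunit at the edge of the module, and its only guide with reads went from 1086 to 395, a log2 ratio of −1.40, or 2.64-fold lower. MED21, on chromosome 12, forms a long dimer with MED7 in the module. Its well-read guide went from 246 to 73 reads, a log2 ratio of −1.69, or 3.22-fold lower, while a second guide went from 0 to 7. The middle module thus held both the highest and the lowest well-read values of the complex.

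MED4, another middle subunit, which lies on chromosome 13 (48053323 to 48095131, minus strand, hg38), had the highest ratio of all Mediator guides. Its guide had no unsorted read and 116 TRT-negative reads, which makes it at least 40.1-fold higher against a floor of 3 unsorted reads, a bound for read sampling only. The other guides against MED4 had no read in either library, so the value rests on 1 guide. MED10, a core middle subunit, likewise had 1 guide with reads, 32 after sorting and none before. Over the module, 5 of 48 guides (10.4%, interval 3.47% to 22.7%) were read before sorting and 9 (18.8%, interval 8.95% to 32.6%) afterwards, with 3 of 8 genes unread. Over all protein-coding guides the shares were 10.5% and 22.6%, inside both intervals, and 22.1% of targets were unread.

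The head module holds the main contact with the polymerase. Of 42 guides against MED6, MED8, MED11, MED17, MED18, MED20 and MED22, 2 were read before sorting (4.76%, interval 0.582% to 16.2%) and 6 afterwards (14.3%, interval 5.43% to 28.5%). The shares over all protein-coding guides, 10.5% and 22.6%, lay inside these intervals, so the head was not set apart from the pool. Both unsorted-read guides were close to the floor. A guide against MED17, the central head subunit, went from 3 to 4 reads, and 1 against MED6 went from 4 to 4. The remaining head guides with reads were seen only after sorting, with 44 reads for MED11, 25 for MED20, 20 for MED18 and 1 for MED8. No head guide reached 30 unsorted reads, so these libraries hold no usable ratio for the head.

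MED14, the scaffold, had 1 guide read, with 45 TRT-negative and 0 unsorted reads. The tail gave more guides but few with depth. Of 36 tail guides, 3 were read before sorting (8.33%, interval 1.75% to 22.5%) and 10 afterwards (27.8%, interval 14.2% to 45.2%). These intervals held the shares over all protein-coding guides, 10.5% and 22.6%. MED27, on chromosome 9, sits where tail and head meet, and the reads of its guide went from 1184 to 496, a log2 ratio of −1.20, or 2.30-fold lower. A guide against its neighbour MED29 counted 117 and 120 reads, a log2 ratio of 0.09. A guide against MED16, a tail subunit that binds activators, went from 150 to 188 reads, a log2 ratio of 0.38. The values of these 3 guides lay on both sides of zero.

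The rest of the tail was read only after sorting. MED15, a subunit that activators of lipid metabolism genes bind, had 4 guides with 2, 9, 21 and 24 TRT-negative reads, 56 in sum, and no unsorted read. It thus had as many guides as MED9 but at a much lower level. MED23, which receives signals from growth factor-driven activators, had 1 guide with 49 reads, and MED24 had a pair of guides with 2 and 7.

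MED25, MED26, MED28 and MED30 were kept apart because their place in the complex is assigned differently by different sources. MED28, on chromosome 4, had 1 guide with reads, which went from 366 to 115, a log2 ratio of −1.61, or 3.05-fold lower. MED26, through which elongation factors dock onto Mediator, was covered by a guide whose reads went from 329 to 159, a log2 ratio of −0.99, and another that went from 0 to 35. MED25, a target of viral and cellular activators on chromosome 19 (49818282 to 49840383, plus strand, hg38), had no unsorted read and 2 guides read after sorting, with 67 and 57 reads. The first of these was at least 23.2-fold higher against the floor. The nearest pair in the complex was that of CDK19, with 59 and 43 reads from none. The share of protein-coding targets with 2 guides at such a level was not taken, so these pairs describe Mediator only.

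In the kinase module, 1 of 42 guides was read before sorting (2.38%, interval 0.0603% to 12.6%), and 9 were read afterwards (21.4%, interval 10.3% to 36.8%). The shares over all protein-coding guides, 10.5% and 22.6%, lay inside these intervals too. The 8 kinase-module guides seen only after sorting were 19.0% of the module's guides, against 12.6% over all protein-coding guides. Over the rest of Mediator the share was 12.2% (interval 7.49% to 18.4%). Within that rest the tail stood at 19.4% (7 of 36 guides, interval 8.19% to 36.0%), so the kinase-module share was not particular to it. The counting intervals of these values overlap. The summed reads went from 667 to 1276, a log2 ratio of 0.99. All 667 unsorted reads belonged to 1 guide against MED12L.

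MED12, the subunit that activates the kinase, lies on chromosome X (71118543 to 71144103, plus strand, hg38) and had 1 guide read, with 107 TRT-negative and no unsorted reads, at least 37.0-fold higher against the floor. Its paralog MED12L, on chromosome 3, was covered by a guide whose reads went from 667 to 922, a log2 ratio of 0.52, and another that went from 0 to 55. The 2 kinases stand in for each other in the module, and both were read only after sorting, CDK8 on 2 guides with 28 and 15 reads and CDK19 on 2 guides with 43 and 59 reads. The sums were 43 for CDK8 and 102 for CDK19. The CDK8 guide with 28 reads had the same counts as the row next to it in the table, which belongs to SEPHS2, and whether the guides share a sequence was not tested. CCNC, the cyclin that binds either kinase, had 1 guide with 14 reads, and MED13L had 1 with 33 while its paralog MED13 had none. In each of the 3 paralog pairs, every guide with reads started from no unsorted read, except the first against MED12L, and the levels of the paralogs could not be ordered from so few guides.

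A stricter count used guides called enriched, meaning a log2 ratio above that of 95% of the 1000 non-targeting guides. The limit was 5.93 and required at least 60 TRT-negative reads where the unsorted count was 0. It was set on guides read more often than the pool, since 19.0% of non-targeting guides were read only after sorting, against 12.6% of protein-coding guides. By construction 5.0% of non-targeting guides lay above it, so 5.0% is no baseline for the shares below. Of 198 Mediator guides, 3 were enriched (1.52%, interval 0.314% to 4.36%), against 2.87% of all protein-coding guides and 2.84% of guides against olfactory receptors, which this cell type is not expected to need. These were the guides against MED4, MED12 and MED25 with ratios of 6.90, 6.78 and 6.11. They fell in 3 different genes, or 3 of 33, where 16.0% of protein-coding targets had an enriched guide, and no Mediator gene had 2. Across the pool 3277 enriched guides fell in 3052 targets, so a target with 2 was uncommon there as well. Just inside the threshold stood the MED25 guide with 67 reads, and just outside stood the guides against CDK19 with 59 reads, MED25 with 57 and MED12L with 55.

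The reads of the guides seen only after sorting ranged from 1 to 116 with a median of 32, while the median over all protein-coding guides of that kind was 35 and the highest was 2349. Of the 27, 3 were enriched (11.1%, interval 2.35% to 29.2%), beside 22.6% of such guides across the protein-coding pool, a share inside that interval. Since 99.4% of enriched protein-coding guides had no unsorted read, an enriched call here mainly reflects how deeply a guide was read after sorting. Such a guide was unread in the unsorted library, which does not show that it was absent from the cells.

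**Figure D2:**
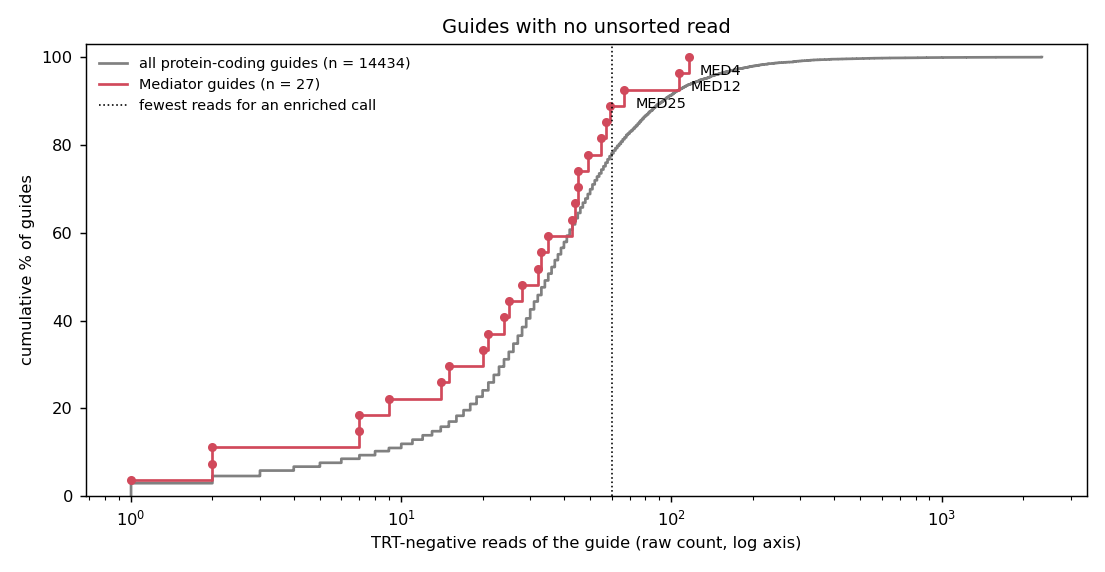
Cumulative percentage of guides with no unsorted read against their TRT-negative reads on a log axis, for the 27 Mediator guides (red, 1 point per guide) and all 14434 protein-coding guides of that kind (grey), with the fewest reads for an enriched call dotted. The 3 Mediator guides to the right of the line are those against MED25, MED12 and MED4, with 67, 107 and 116 reads.

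Among well-read guides, where a ratio has reads on both sides, Mediator supplied 11 guides from 9 genes. None was at least 2-fold higher after sorting (interval 0% to 28.5%), against 12.1% of the 10616 well-read protein-coding guides. At least 2-fold lower were 4, those against MED21, MED28, MED19 and MED27 (36.4%, interval 10.9% to 69.2%), against 39.2%. In the other direction from zero, 6 of the 11 were higher and 5 lower, and 34.2% of well-read protein-coding guides were higher. The Mediator median was 0.09 (SD 1.05, n = 11 guides, range −1.69 to 0.91), while the protein-coding median was −0.64, the olfactory receptor median −0.60 and the non-targeting median −0.89.

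The position of these ratios depends on the scaling. Scaling by the median ratio moved the protein-coding median from −0.64 to −0.08 and the Mediator median to 0.64, with 4 Mediator guides at least 2-fold higher and 2 at least 2-fold lower, where 24.2% and 20.1% of protein-coding guides were. Scaling on non-targeting guides moved these medians to −0.34 and 0.38, with 2 Mediator guides at least 2-fold higher against 17.6% of protein-coding guides. Relative to the protein-coding median, the lowest Mediator guides were not extreme, since 17.0% of well-read protein-coding guides lay at or below MED21, 18.7% at or below MED28, 24.3% at or below MED19 and 31.6% at or below MED27.

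The sign of the Mediator median changed with MED9. Without its guides, chosen for this after the values were seen, 8 well-read guides remained with a median of −1.10, 5 of them below zero and 3 above. Unsorted abundance also moved with the ratio across the pool. The protein-coding median was −0.29 for guides with at least 30 and under 300 unsorted reads, −0.39 from there to under 1000, and −1.02 for 1000 or more. The corresponding Mediator medians were 0.23 over 4 guides, −0.99 over 3 and −0.27 over 4. A pair of the MED9 guides lay in the most abundant class, in which 50.7% of protein-coding guides were at least 2-fold lower and 9.32% at least 2-fold higher. The other Mediator guides in that class were those against MED19 and MED27. Their ratios of −1.40 and −1.20 lay near the class median of −1.02.

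**Figure D3:**
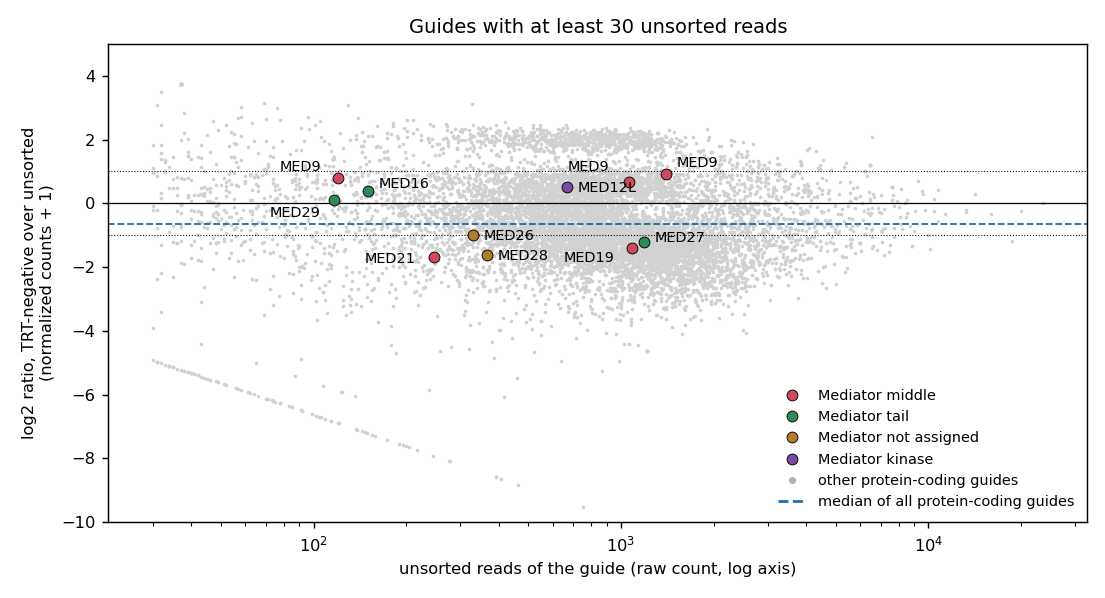
Log2 ratio of TRT-negative over unsorted normalized counts plus 1 against unsorted reads on a log axis for guides with at least 30 unsorted reads, with Mediator guides coloured by module and all other protein-coding guides in grey; dotted lines mark 2-fold, and the dashed line the protein-coding median of −0.64. The 3 MED9 guides lie between 0.66 and 0.91, while MED19, MED21, MED27 and MED28 lie below the lower dotted line.

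The sub-pools carried different Mediator guides, 99 each. In sub-pool A, 6 were read before sorting (6.06%) and 18 after it (18.2%), with none enriched and a well-read median of 0.31 over 6 guides. In sub-pool B, 7 were read before sorting (7.07%) and 22 after it (22.2%), with all 3 enriched guides and a well-read median of −1.40 over 5 guides. Over all protein-coding guides the values for A and B were 2.90% and 2.84% enriched, with well-read medians of −0.67 and −0.63. The sign of the Mediator median therefore differed between the sub-pools. The well-read guides behind these medians were against different genes, apart from MED9, whose ratios were positive in both sub-pools. The medians are thus no comparison of different guides against the same genes.

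Other machineries that act on RNA polymerase II were set beside Mediator. The 12 polymerase subunits had 11.1% of their 72 guides read before sorting, 26.4% afterwards and 4 enriched (5.56%, interval 1.53% to 13.6%), led by POLR2F, where a guide went from 0 to 412 reads. The POLR2D, POLR2J and POLR2B genes each had an enriched guide as well, with 145, 87 and 68 TRT-negative reads from none. The POLR2J guides have the same counts as neighbouring rows, so their reads may belong to a gene copy, and POLR2B was named after its values were seen. Of 192 guides against 32 general transcription factor genes, 10.4% were read before sorting, 22.4% afterwards and 5 were enriched (2.60%, interval 0.851% to 5.97%). GTF2A1, which stabilises TBP on the promoter, held 2 of these with 87 and 68 reads and a further guide that went from 558 to 1692, while TAF10 and MNAT1 held 1 each with 99 and 67 reads. The remaining enriched guide was against CCNH, with 65 reads, also named after its value was seen.

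Of 156 guides against 26 elongation factor genes, 8.97% were read before sorting and 15.4% (interval 10.1% to 22.0%) afterwards, an interval that lies below the 22.6% of all protein-coding guides and overlaps that of Mediator. There were 2 enriched guides among them (1.28%, interval 0.156% to 4.55%), among them a guide against CDK9 with 132 reads from none. A guide against NELFA had 55 reads, below the threshold. Integrator, which cleaves nascent transcripts at many genes, had 4.44% of its 90 guides read before sorting, 18.9% afterwards and 3 enriched guides (3.33%, interval 0.693% to 9.43%), against INTS11 with 104 reads, INTS13 with 87 and INTS9 with 67. At least 2-fold higher after sorting were 4 of 17 well-read guides against general factors (23.5%, interval 6.81% to 49.9%) and 3 of 12 against elongation factors (25.0%, interval 5.49% to 57.2%), while no such guide was found among 7 for the polymerase, 4 for Integrator or the 11 for Mediator, whose interval reached 28.5%. The median ratios of the well-read guides were −0.70 for the polymerase, −0.19 for the general factors, −0.36 for elongation factors and −0.79 for Integrator, over 7, 17, 12 and 4 guides. The intervals of enriched guides, and of guides at least 2-fold higher, overlapped those of Mediator for each of these lists.

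**Figure D4:**
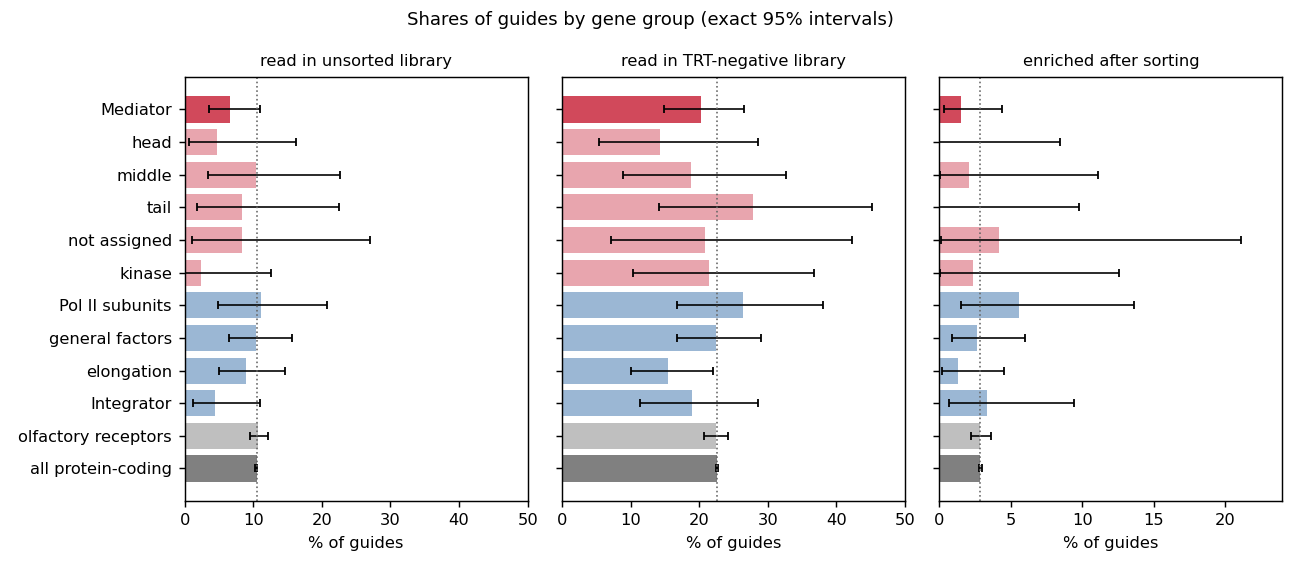
Percentage of guides read in the unsorted library, read in the TRT-negative library and enriched after sorting, with exact 95% intervals, for Mediator, its modules, 4 other transcription lists, olfactory receptors and all protein-coding guides (dotted line). The Mediator bars stand at 6.57%, 20.2% and 1.52%, and each interval spans the value over all protein-coding guides.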

How the data were processed

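In SK-OV-3 reporter cells, guide DNA was sequenced before and after the sort, with 1 library each. Raw counts of reads for each guide were deposited by the authors, and a further table that the authors deposited holds normalized counts, a signal that is a constant times the raw value, 0.982 for unsorted and 1.02 for TRT-negative cells. The submitters' processing notes name MAGeCK and hg38. How reads were assigned, and with which version, is not given in the sources used here. Guide sequences were not used here. The authors' comparison tables hold scores, p-values, false discovery rates, ranks and fold changes and were not used.

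Each guide's log2 ratio of TRT-negative over unsorted normalized counts was taken after adding 1 to both. Guides were called read with at least 1 read, well-read with at least 30 unsorted reads, and enriched above the 95th percentile over 1000 non-targeting guides, each entered once. Folds against 0 unsorted reads used a floor of 3 reads. Lists were described by counts, medians and exact Clopper-Pearson 95% intervals beside all protein-coding guides, with no test. The members, modules and compared lists were chosen with earlier results of these data known. Every Mediator gene with an enriched or well-read guide was given with its reads, and from each compared list the first 3 genes by enriched guides were named, ties by mean log2 ratio. The values of 1 gene that this rule names are not reported here. Gene positions are from GENCODE 44 on hg38. Alternatives covered the scaling, pseudocount, sub-pools A and B, thresholds, rows with counts equal to those of a neighbouring row, and leaving out the deepest guide of each gene. The calculations were tested on simulated data. Unchanged guides with 0 unsorted reads stayed at 0 there by construction, so false enriched calls among such guides were not tested. Tools were matplotlib 3.10.9, scipy 1.17.1, pandas 2.3.3 and numpy 2.4.6 under Python 3.11.15.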

Additional observations from a re-analysis of the deposited data

How the results depend on the processing

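Of 64 recomputed values over 15 settings, 51 kept their direction and lay inside a wide allowance, namely the exact interval of a share, the interval of a median over its 11 guides, or 1.5 times a count. Inside that allowance the median log2 ratio of 0.09 still became 0.64 with median-ratio scaling, 0.38 with non-targeting scaling and 0.31 in sub-pool A, and the enriched share of 1.52% became 3.03% in sub-pool B. Among well-read guides, median-ratio scaling gave 4 at least 2-fold higher and 2 lower, and non-targeting scaling gave 2 higher. Sub-pool A alone gave 1 guide 2-fold lower and an enriched share of 0%, as did the 99th percentile, above which 0.499% of protein-coding guides lay. The median log2 ratio turned to −1.40 in sub-pool B and to −1.10 without MED9, the latter setting chosen after seeing the data. Without the most-read guide of each gene, the summed log2 ratio was 0.89 for the complex and 0.71 for the middle. All 1179 unsorted reads left in either sum belonged to MED9 guides. The other guides left had no unsorted read and could only rise, so neither value describes the complex or the module as a whole. The tail gave 5.16 and the group of MED25, MED26, MED28 and MED30 gave 6.57, both negative before, but the guides left there and in the kinase module had no unsorted read, so these values are set by the construction and the pseudocount and say nothing of direction. The head and scaffold gave no value there. No paired analysis was possible because each condition had 1 library. The guides were unevenly represented: 11 of 33 Mediator genes had an unsorted read, while 46.9% of protein-coding targets had at least 1. Guides with unsorted reads had a median of 329 such reads for Mediator and 770 over all protein-coding guides.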
